A study of Mus musculus with 12 samples.

Results

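The 10 genes described here encode the ligands, receptors, co-receptors, inhibitors and a nuclear partner of NODAL signalling. They are Nodal, Gdf1, Gdf3, Tdgf1, Cfc1, Lefty1, Lefty2, Acvr1b, Acvr2b and Foxh1, chosen by name, and each matched 1 gene identifier among the 54446 identifiers of the deposited expression table. All 10 passed the filter on low values (at least 1 TPM in at least 3 of 12 libraries), as did 16097 genes in all. Gdf1 and Gdf3 passed it through the mESC libraries alone, so their lower level in the sorted groups was a condition of being tested. Cfc1 was under 1 TPM in every mESC library and passed through sorted libraries alone. A level above mESC in some sorted libraries was thus a condition of testing it.

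NODAL is a secreted TGF-beta family ligand that signals through a complex of the type I receptor ACVR1B (ALK4) and the type II receptors ACVR2A and ACVR2B. It needs an EGF-CFC co-receptor at the cell surface, either TDGF1 (CRIPTO) or CFC1 (CRYPTIC), and the receptors activate SMAD2 and SMAD3, which enter the nucleus with SMAD4 and act with DNA-binding partners such as FOXH1. LEFTY1 and LEFTY2 are secreted inhibitors that are themselves induced by the pathway, and graded NODAL signalling in the gastrulating mouse embryo is known for specifying the primitive streak and definitive endoderm.

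Poly(A) RNA was sequenced from the mouse embryonic stem cell line E14 and from 3 populations differentiated from it, with 3 libraries per group. SOX17+ cells, SOX17+/T+ cells and T+ cells were sorted after differentiation by reporters for SOX17, an endoderm transcription factor, and T (Brachyury), which marks the primitive streak and early mesoderm. The undifferentiated cells (mESC) had been kept in serum and LIF on irradiated mouse embryonic fibroblasts, and no sort is stated for them. The sources used here do not give the differentiation protocol, its duration, the gates or the reporter alleles. They also do not state separate cultures for the libraries of a group, and p-values then measure only the spread between these libraries, which may be technical. Values are TPM as deposited by the authors, a unit scaled per transcript length and to 1000000 per library, so the depth behind a value is unknown. Differences are of log2(TPM + 1) ± the standard error (SE) of a limma fit across all 16097 genes, a scale that understates changes of genes near or below 1 TPM. Calls were made at an adjusted p (Benjamini-Hochberg) under 0.05. An exact 0 can be a failed estimate, and in bulk RNA fewer expressing cells and less RNA per cell cannot be told apart.

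The sort was visible in the targeted transcripts. T averaged 2.32 ± 0.493 TPM in SOX17+ libraries, 44.5 ± 15.3 in SOX17+/T+ libraries, 127 ± 33.1 in T+ libraries and 0.647 ± 0.0275 in mESC libraries (SD, n = 3 each). Sox17 averaged 229.9 ± 16.7, 139 ± 13.8, 10.3 ± 2.50 and 0.638 ± 0.157 TPM in the same order of groups. Libraries of the same group correlated at 0.995 to 0.997 across genes, and libraries of different groups at 0.822 to 0.987.

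The co-receptor genes Tdgf1 and Cfc1 had opposite differences between the sorted groups and mESC, and Nodal differed in the same direction as Tdgf1, so the 250 bases before their annotated starts are printed here. They come from RefSeq (GRCm38.p6), which held an entry for 6 of the 10 genes (Nodal, Gdf1, Tdgf1, Cfc1, Acvr1b and Acvr2b). Each sequence reads 5′ to 3′ on the strand of its gene, and capitals mark matches, on either strand, to 5 short motifs. The FOXH1 letters TGTNNATT are held by 10.9% of the 32851 RefSeq windows of this length, and the SMAD letters CAGAC by 42.2% of them. For T-box factors the letters AGGTGT were searched, which 11.8% of windows hold. The letters searched for GATA factors were AGATAA (9.99% of windows) and those for SOX factors were ACAATG (10.7% of windows). The first is chr9:110946159-110946408 on the minus strand, the second chr1:34535398-34535647 on the plus strand and the third chr10:61417722-61417971 on the plus strand.
Tdgf1: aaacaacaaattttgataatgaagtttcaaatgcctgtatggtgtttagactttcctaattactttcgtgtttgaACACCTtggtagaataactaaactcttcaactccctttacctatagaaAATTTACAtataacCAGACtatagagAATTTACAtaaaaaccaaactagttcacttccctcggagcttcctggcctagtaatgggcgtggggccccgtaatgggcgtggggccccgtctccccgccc
Cfc1: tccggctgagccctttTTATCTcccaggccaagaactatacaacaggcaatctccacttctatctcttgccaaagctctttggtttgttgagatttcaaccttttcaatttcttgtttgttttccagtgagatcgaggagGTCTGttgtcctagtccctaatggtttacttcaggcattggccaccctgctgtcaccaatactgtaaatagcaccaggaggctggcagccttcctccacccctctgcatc
Nodal: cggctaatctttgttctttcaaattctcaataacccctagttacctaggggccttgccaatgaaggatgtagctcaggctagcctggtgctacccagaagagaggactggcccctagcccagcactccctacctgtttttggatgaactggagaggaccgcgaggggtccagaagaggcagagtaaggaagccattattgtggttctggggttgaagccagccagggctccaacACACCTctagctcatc
The Tdgf1 window held the FOXH1 letters in 2 places, 127 and 101 bases before the start, with the SMAD letters between them at 113 bases and the T-box letters at 175 bases. The Cfc1 window held the SMAD letters at 110 bases and the GATA letters at 234 bases before the start and no match to the FOXH1 letters, and the Nodal window held the T-box letters at 16 bases. No match overlapped another. A match describes letters only and shows no binding.

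Nodal, Gdf3, the co-receptor Tdgf1 and both Lefty genes were lower in every sorted group than in mESC, whereas the co-receptor Cfc1, the receptors Acvr1b and Acvr2b and the SMAD partner Foxh1 were higher. Among the sorted groups, Nodal, both Lefty genes, Tdgf1, Cfc1 and Foxh1 had their lowest mean in SOX17+ cells and their highest in T+ cells. The plot of the 10 genes by library shows these levels.

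**Figure D1:**
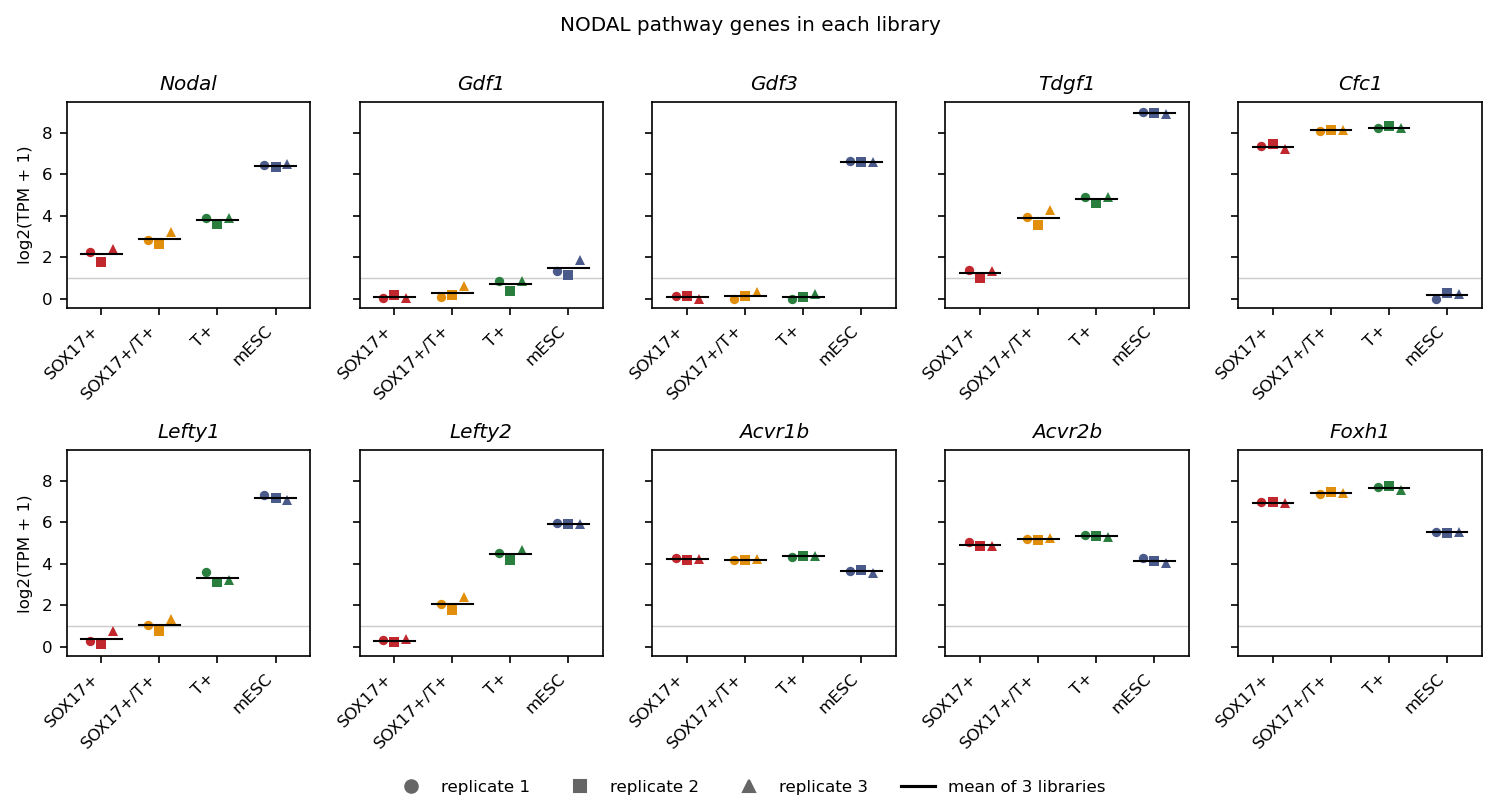
Levels of the 10 genes as log2(TPM + 1) in SOX17+, SOX17+/T+, T+ and mESC libraries. Each point is 1 library (symbol shape gives the replicate number), black bars are means of 3 libraries, and the grey line marks 1 TPM. Cfc1 lies near 0 in mESC and at 145 to 322 TPM in the sorted groups, and Gdf3 lies at 93.6 to 97.9 TPM in mESC and below 1 TPM elsewhere.

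Nodal (ENSMUSG00000037171.6, chr10:61417972-61425338, plus strand, GRCm38) encodes the ligand itself. It was at 3.80, 2.44 and 4.26 TPM in SOX17+ libraries, 6.16, 5.20 and 8.10 TPM in SOX17+/T+ libraries, 13.8, 11.2 and 13.5 TPM in T+ libraries, and 84.9, 80.3 and 87.6 TPM in mESC libraries. No library of a group overlapped with those of another, and each neighbouring pair in the order mESC, T+, SOX17+/T+, SOX17+ differed. Against mESC, Nodal fell by 4.26 ± 0.16 on the log2 scale in SOX17+ cells (adjusted p = 1.1e-10), and the ratio of means was 0.0416. The log2 difference from mESC was -3.53 ± 0.16 in SOX17+/T+ cells (adjusted p = 6.8e-10) and -2.63 ± 0.16 in T+ cells (adjusted p = 1.2e-08). SOX17+ cells held less Nodal than T+ cells (-1.64 ± 0.16, adjusted p = 3.9e-06) and than SOX17+/T+ cells (-0.74 ± 0.16, adjusted p = 0.0037). SOX17+/T+ cells also held less than T+ cells (-0.90 ± 0.16, adjusted p = 0.0014).

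Gdf3 (ENSMUSG00000030117.5, chr6:122605403-122610087, minus strand) encodes a TGF-beta family ligand that uses the same co-receptors. It was listed at 0.101, 0.101 and 0 TPM in SOX17+ libraries, 0, 0.0934 and 0.228 TPM in SOX17+/T+ libraries, 0, 0.0569 and 0.157 TPM in T+ libraries, and 97.9, 93.6 and 94.7 TPM in mESC libraries. The gene was close to 0 in all 9 sorted libraries, and these overlapped among the sorted groups. Its differences from mESC were -6.50 ± 0.09 in SOX17+, -6.45 ± 0.09 in SOX17+/T+ and -6.49 ± 0.09 in T+ cells, which the filter required to be negative. No difference of Gdf3 between sorted groups was called (adjusted p = 0.99, 0.76 and 0.73), and its sign there turned when single libraries were left out.

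Gdf1 (ENSMUSG00000109523.1, chr8:70329817-70331587, plus strand) encodes a ligand that pairs with NODAL. It was at 0.0277, 0.119 and 0.0201 TPM in SOX17+ libraries, 0.0447, 0.133 and 0.496 TPM in SOX17+/T+ libraries, 0.782, 0.269 and 0.828 TPM in T+ libraries, and 1.55, 1.18 and 2.66 TPM in mESC libraries. Only the mESC libraries exceeded 1 TPM. The value is uncertain because all 1349 exon bases of Gdf1 lie inside the ceramide synthase gene Cers1 on the same strand, so that each of the 1250 windows of 100 bases in its transcript also occurs in a Cers1 transcript. Cers1 averaged 6.39 TPM in SOX17+, 9.29 in SOX17+/T+, 9.49 in T+ and 2.91 in mESC libraries. Against mESC it was opposite in direction to Gdf1. Among the sorted groups both genes had their lowest mean in SOX17+ and their highest in T+ cells. Cers1 was called lower in SOX17+ than in T+ cells (-0.51 ± 0.10, adjusted p = 7.8e-04). Gdf1 alone differed from mESC by -1.37 ± 0.20 in SOX17+ cells, but Gdf1 and Cers1 summed differed by 0.39 (adjusted p = 7.6e-04), so no direction against mESC is given for this locus. Between the sorted groups, Gdf1 was called only in SOX17+ against T+ cells (-0.61 ± 0.20, adjusted p = 0.021), a call lost without any of 4 single libraries (SOX17+ replicate 1 or 3, T+ replicate 1 or 3), with adjusted p of 0.057 to 0.078.

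Of the summed TPM of Nodal, Gdf1 and Gdf3, Nodal made up 96.0 ± 3.95% in SOX17+, 95.6 ± 3.75% in SOX17+/T+, 95.0 ± 2.00% in T+ and 46.4 ± 0.816% in mESC libraries (SD, n = 3 each). The sum of the 3 ligands was 3.62 ± 0.851 TPM in SOX17+, 6.82 ± 1.78 TPM in SOX17+/T+, 13.5 ± 1.76 TPM in T+ and 181 ± 5.55 TPM in mESC libraries. Gdf3 was the most abundant of the 3 in each mESC library, and Nodal in each sorted library.

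The co-receptor transcripts changed over between mESC and the sorted groups. Tdgf1 (ENSMUSG00000032494.12, chr9:110939603-110946158, minus strand) was at 1.58, 0.970 and 1.54 TPM in SOX17+ libraries, 14.2, 10.5 and 18.3 TPM in SOX17+/T+ libraries, 28.7, 23.7 and 28.6 TPM in T+ libraries, and 518, 486 and 478 TPM in mESC libraries. Cfc1 (ENSMUSG00000026124.4, chr1:34535648-34544313, plus strand) was at 161, 171 and 145 TPM in SOX17+ libraries, 274, 277 and 282 TPM in SOX17+/T+ libraries, 294, 322 and 294 TPM in T+ libraries, and 0, 0.217 and 0.147 TPM in mESC libraries. By mean TPM, Tdgf1 ranked 296 and Cfc1 15864 of 16097 tested genes in mESC, whereas Cfc1 ranked 860 in SOX17+, 447 in SOX17+/T+ and 409 in T+ cells.

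Against mESC, Tdgf1 differed by -7.72 ± 0.17 in SOX17+, -5.04 ± 0.17 in SOX17+/T+ and -4.15 ± 0.17 in T+ cells (adjusted p = 1.6e-12, 6.7e-11 and 3.8e-10). Cfc1 differed from mESC by 7.16 ± 0.07, 7.96 ± 0.07 and 8.09 ± 0.07 in the same groups (adjusted p = 2.1e-16, 1.4e-16 and 1.3e-16). In each group, the 3 libraries lay all below those of mESC for Tdgf1 and all above them for Cfc1. Cfc1 passed the filter through sorted libraries alone, so a level above mESC in some of them was a condition of testing it.

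Among the sorted groups, both co-receptors were lowest in SOX17+ cells, but by different amounts. Tdgf1 differed by -3.57 ± 0.17 between SOX17+ and T+ cells (adjusted p = 8.7e-09), a ratio of means of 0.0506, and Cfc1 by -0.93 ± 0.07 (adjusted p = 2.0e-07), a ratio of means of 0.525. Tdgf1 was also lower in SOX17+ than in SOX17+/T+ cells (-2.67 ± 0.17, adjusted p = 4.1e-07), as was Cfc1 (-0.80 ± 0.07, adjusted p = 2.6e-06). SOX17+/T+ cells held less Tdgf1 than T+ cells (-0.90 ± 0.17, adjusted p = 0.0020). The Cfc1 difference between these groups was not called (-0.13 ± 0.07, adjusted p = 0.22), although all 3 SOX17+/T+ libraries lay below the T+ libraries. With a pseudocount of 0.1 TPM the Cfc1 call between SOX17+ and SOX17+/T+ cells was lost (adjusted p = 0.10).

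Within each library the shift can be read as a share. Cfc1 made up 99.0, 99.4 and 98.9% of the summed Tdgf1 and Cfc1 TPM in SOX17+ libraries, 95.1, 96.3 and 93.9% in SOX17+/T+ libraries, 91.1, 93.2 and 91.2% in T+ libraries, and 0, 0.0446 and 0.0306% in mESC libraries. The sum of both was 161 ± 12.8 TPM in SOX17+, 292 ± 7.04 TPM in SOX17+/T+, 330.3 ± 13.5 TPM in T+ and 494 ± 21.0 TPM in mESC libraries (SD, n = 3 each). No groups overlapped in the share or in the sum, and with 3 libraries against 3 an exact permutation test cannot give a 2-sided p below 0.1.

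Shared sequence bears on these levels. Tdgf1 shares 86 of its 1833 windows of 100 bases (4.69%) with the processed copy Tdgf1-ps1, which was listed at 26.3 ± 11.8% of the Tdgf1 TPM in SOX17+, 28.7 ± 5.46% in SOX17+/T+, 27.0 ± 1.69% in T+ and 26.6 ± 0.260% in mESC libraries. Summing both left every Tdgf1 call and direction as it was. Of the 1040 exon bases of Cfc1, 27.8% overlap Prss40 on the opposite strand, and Prss40 averaged 0.112 TPM in SOX17+, 0.178 in SOX17+/T+, 0.199 in T+ and 0.0200 in mESC libraries. The libraries were stranded, per the labels, and the sources used here do not say whether strand was used in the quantification. The longest reading frames of Tdgf1 and Cfc1 were 62.4% identical, and they shared no window of 100 bases.

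**Figure D2:**
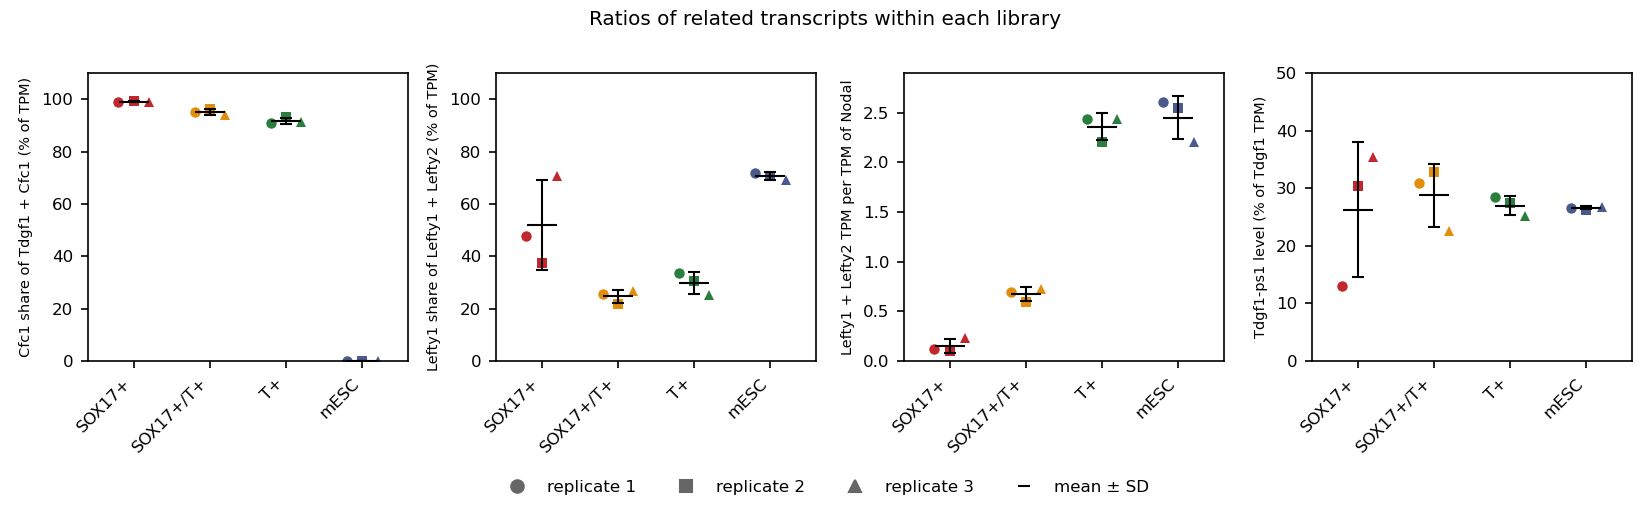
Ratios of related transcripts within each library for SOX17+, SOX17+/T+, T+ and mESC. From left, the panels give the Cfc1 share of the co-receptor TPM, the Lefty1 share of the Lefty TPM, the summed Lefty TPM per TPM of Nodal, and Tdgf1-ps1 as a percentage of Tdgf1. Points are libraries and bars are means ± SD (n = 3). The Lefty to Nodal ratio is 0.150 in SOX17+, 0.671 in SOX17+/T+, 2.36 in T+ and 2.45 in mESC libraries, and the group means of Tdgf1-ps1 lie between 26.3 and 28.7%.

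Both inhibitor genes were lower in SOX17+ than in T+ cells and lower in each sorted group than in mESC. Lefty1 (ENSMUSG00000038793.8, chr1:180935022-180938400, plus strand) was at 0.214, 0.0940 and 0.690 TPM in SOX17+ libraries, 1.10, 0.669 and 1.56 TPM in SOX17+/T+ libraries, 11.3, 7.56 and 8.36 TPM in T+ libraries, and 159, 144 and 134 TPM in mESC libraries. The neighbouring gene Lefty2 (ENSMUSG00000066652.5, chr1:180893108-180899103, plus strand) was at 0.233, 0.158 and 0.284 TPM in SOX17+ libraries, 3.20, 2.41 and 4.30 TPM in SOX17+/T+ libraries, 22.3, 17.1 and 24.7 TPM in T+ libraries, and 62.0, 59.9 and 59.6 TPM in mESC libraries. Both genes were under 1 TPM in every SOX17+ library. Lefty2 groups did not overlap, while the highest SOX17+ library for Lefty1 lay above the lowest SOX17+/T+ library.

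Lefty2 differed by -4.18 ± 0.15 between SOX17+ and T+ cells (adjusted p = 1.7e-10), a ratio of means of 0.0105, by -2.38 ± 0.15 between SOX17+/T+ and T+ cells (adjusted p = 1.6e-07), and by -1.79 ± 0.15 between SOX17+ and SOX17+/T+ cells (adjusted p = 1.5e-06). Lefty1 differed by -2.93 ± 0.19 between SOX17+ and T+ cells (adjusted p = 1.1e-07) and by -2.26 ± 0.19 between SOX17+/T+ and T+ cells (adjusted p = 4.7e-06). The Lefty1 difference between SOX17+ and SOX17+/T+ cells (-0.67 ± 0.19, adjusted p = 0.018) lost its call without SOX17+ replicate 1 or 2 or SOX17+/T+ replicate 3 (adjusted p = 0.061, 0.072 and 0.069). With a pseudocount of 0.1 TPM, differences of these low values grew by over 1.5 times, to -4.64 for Lefty1 in SOX17+ against T+ cells and to -1.66 for Lefty1 and -3.37 for Lefty2 in SOX17+ against SOX17+/T+ cells.

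Against mESC, Lefty1 differed by -6.81 ± 0.19 in SOX17+, -6.14 ± 0.19 in SOX17+/T+ and -3.88 ± 0.19 in T+ cells, and Lefty2 by -5.65 ± 0.15, -3.86 ± 0.15 and -1.47 ± 0.15 in the same groups (adjusted p at most 7.4e-07). The order of the pair turned between mESC and the T-positive groups. Lefty1 made up 25.6, 21.7 and 26.6% of the summed Lefty TPM in SOX17+/T+ libraries, 33.8, 30.6 and 25.3% in T+ libraries, and 72.0, 70.7 and 69.1% in mESC libraries. In SOX17+ libraries, where both were under 1 TPM, the share was 47.9, 37.4 and 70.8% and overlapped with that of mESC. The reading frames of the pair are 91.9% identical over 1107 bases, and 73 windows of 100 bases are shared, 4.80% of those of Lefty1 and 3.07% of those of Lefty2. Summed and fitted as 1 gene, the pair differed from mESC and between all sorted groups in the same direction as each gene alone, for example by -1.79 ± 0.21 in SOX17+ against SOX17+/T+ cells (adjusted p = 5.5e-05) and by -2.73 ± 0.21 in T+ cells against mESC (adjusted p = 1.8e-07).

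The inhibitors were also set against the ligand in the same library. The summed Lefty TPM per TPM of Nodal was 0.117, 0.103 and 0.229 in SOX17+ libraries, 0.698, 0.592 and 0.723 in SOX17+/T+ libraries, 2.44, 2.21 and 2.44 in T+ libraries, and 2.61, 2.55 and 2.21 in mESC libraries. The ratio overlapped between T+ and mESC libraries and was lower in every SOX17+/T+ library and lower still in every SOX17+ library. The SOX17+ ratio rests on Lefty values under 1 TPM at unknown depth.

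Both receptor genes were higher in each sorted group than in mESC, by ratios of means of 1.50 to 2.32. Acvr1b (ENSMUSG00000000532.11, chr15:101174067-101213684, plus strand) was at 18.5, 17.4 and 17.8 TPM in SOX17+ libraries, 17.0, 17.0 and 18.0 TPM in SOX17+/T+ libraries, 19.1, 19.8 and 19.8 TPM in T+ libraries, and 11.73, 11.98 and 10.81 TPM in mESC libraries. Acvr2b (ENSMUSG00000061393.14, chr9:119402118-119434995, plus strand) was at 31.9, 27.8 and 28.0 TPM in SOX17+ libraries, 35.9, 34.4 and 37.4 TPM in SOX17+/T+ libraries, 40.8, 39.0 and 37.6 TPM in T+ libraries, and 18.5, 16.6 and 15.5 TPM in mESC libraries. Every sorted library lay above every mESC library for both genes. Acvr1b was higher than in mESC by 0.59 ± 0.05 in SOX17+, 0.55 ± 0.05 in SOX17+/T+ and 0.72 ± 0.05 in T+ cells, and Acvr2b by 0.76 ± 0.07, 1.05 ± 0.07 and 1.17 ± 0.07 (adjusted p at most 3.0e-07).

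Among the sorted groups, Acvr2b was lower in SOX17+ than in T+ cells (-0.41 ± 0.07, adjusted p = 2.1e-04) and than in SOX17+/T+ cells (-0.29 ± 0.07, adjusted p = 0.0051), and its difference between SOX17+/T+ and T+ cells was not called (-0.12 ± 0.07, adjusted p = 0.21). Acvr1b was lower in SOX17+/T+ than in T+ cells (-0.17 ± 0.05, adjusted p = 0.029), a call lost without T+ replicate 2 or 3 or SOX17+/T+ replicate 1 or 2 (adjusted p = 0.081 to 0.091). Its differences between SOX17+ and T+ cells (-0.12 ± 0.05, adjusted p = 0.061) and between SOX17+ and SOX17+/T+ cells (0.04 ± 0.05, adjusted p = 0.56) were not called. The first of these was called without mESC replicate 3 (adjusted p = 0.045) and with limma's plain variance model (adjusted p = 0.046). Acvr2b stood at 1.63 ± 0.0816 TPM per TPM of Acvr1b in SOX17+, 2.07 ± 0.0486 in SOX17+/T+, 2.00 ± 0.120 in T+ and 1.46 ± 0.0981 in mESC libraries (SD, n = 3 each).

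Foxh1 (ENSMUSG00000033837.5, chr15:76668225-76669948, minus strand), which encodes the forkhead partner of activated SMAD2 and SMAD3, was at 125, 123 and 120.4 TPM in SOX17+ libraries, 164, 174 and 169 TPM in SOX17+/T+ libraries, 207, 211 and 189.9 TPM in T+ libraries, and 45.3, 43.6 and 45.2 TPM in mESC libraries. No groups overlapped, and each neighbouring pair in the order T+, SOX17+/T+, SOX17+, mESC differed. Against mESC, Foxh1 was higher by 1.44 ± 0.04 in SOX17+, 1.89 ± 0.04 in SOX17+/T+ and 2.16 ± 0.04 in T+ cells (adjusted p = 1.2e-12, 9.6e-14 and 2.9e-14). It was lower in SOX17+ than in T+ cells (-0.72 ± 0.04, adjusted p = 8.9e-09) and than in SOX17+/T+ cells (-0.45 ± 0.04, adjusted p = 2.3e-06), and lower in SOX17+/T+ than in T+ cells (-0.26 ± 0.04, adjusted p = 3.5e-04). By mean TPM it ranked 1142 in SOX17+, 746 in SOX17+/T+, 616 in T+ and 3746 in mESC among the 16097 tested genes.

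Read over all members, each comparison has to be set beside the share of all genes it called, and the comparisons share libraries. In SOX17+ cells against mESC, 4 of 10 members were called higher and 6 lower, where 85.4% of all tested genes were called (35.4% higher and 50.0% lower). The same members were called in the same directions in SOX17+/T+ cells, where 85.2% of genes were called (34.9% higher and 50.3% lower), and in T+ cells, where 84.0% were called (34.5% higher and 49.5% lower). Such shares are near the background, so the counts against mESC are no result about the members. The directions of Gdf1 and Gdf3 follow from the filter, and Cfc1 passed it through sorted libraries alone. Under quantile normalization, the higher share of called genes moved to 52.4% in SOX17+, 53.2% in SOX17+/T+ and 53.4% in T+ cells, against 41.5%, 40.9% and 41.0% on the deposited scale, and the median log2 difference of all genes moved to 0.05, 0.06 and 0.07, against -0.18, -0.19 and -0.17. Member directions were the same on both scales, and Gdf1 in T+ cells was no longer called (adjusted p = 0.090). The median over the members was -2.82 in SOX17+, -2.35 in SOX17+/T+ and -1.12 in T+ cells on the deposited scale. It includes Gdf1 and Gdf3, whose lower level was a condition of being tested, and Cfc1, which passed through sorted libraries alone. The median is thus no result about the members.

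In SOX17+ against T+ cells, 8 of 10 members were called lower and none higher, beside 54.5% of all genes called (29.0% lower and 25.4% higher). In SOX17+/T+ against T+ cells, 6 were called lower and none higher, beside 28.4% of all genes (15.8% lower and 12.6% higher). In SOX17+ against SOX17+/T+ cells, 7 were called lower and none higher, beside 36.6% of all genes (16.8% lower and 19.8% higher). Every called member was thus lower in the sorted group with less T and more Sox17 transcript. Both follow the sort and cannot be told apart here. The members' median differences were -0.82, -0.33 and -0.56 in these comparisons, against -0.03, -0.03 and 0.00 over all tested genes. The members were chosen with earlier results known, so these counts are a description.

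**Figure D3:**
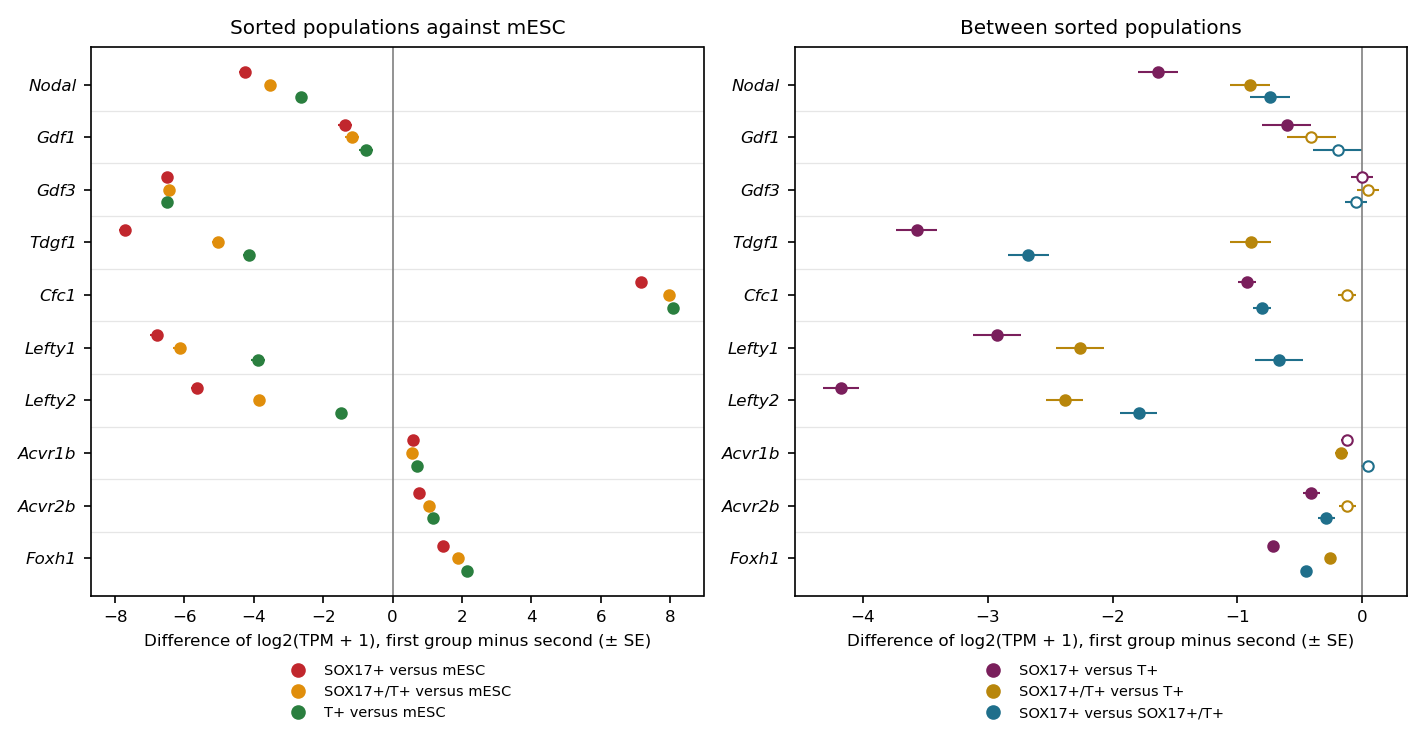
Differences of log2(TPM + 1) ± SE of the 10 genes, with the sorted populations against mESC on the left and the sorted populations against each other on the right. Filled points were called at an adjusted p under 0.05 and open points were not. On the right, all filled points lie below 0, and the open points belong to Gdf1, Gdf3, Cfc1, Acvr1b and Acvr2b.

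A strict stepwise order, with every T+ library above every SOX17+/T+ library and every SOX17+/T+ library above every SOX17+ library, held for 6 of 10 members (Nodal, Lefty2, Tdgf1, Cfc1, Foxh1 and Acvr2b) and for 10.7% of all tested genes (1726 genes). The place of SOX17+/T+ cells along this order differed by gene. With the T+ mean set to 0 and the SOX17+ mean to 1 on the log2 scale, Cfc1 in SOX17+/T+ libraries lay at 0.136 (range 0.112 to 0.157), Tdgf1 at 0.251 (0.149 to 0.357), Acvr2b at 0.298 (0.158 to 0.444) and Foxh1 at 0.365 (0.309 to 0.423). Nodal lay at 0.549 (0.366 to 0.704), Lefty2 at 0.571 (0.493 to 0.646) and Lefty1 at 0.773 (0.670 to 0.880). On the log2(TPM + 1) scale the ranges of the co-receptors did not overlap with those of the inhibitors. SOX17+/T+ cells stood nearer to T+ cells for the co-receptors and nearer to the middle or to SOX17+ cells for the inhibitors. Both Lefty genes were under 1 TPM in every SOX17+ library, where the added 1 TPM shrinks differences. Their positions therefore depend on the pseudocount, and positions with a smaller one were not computed. No test was run on these positions.

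The sorted groups also differed in markers of other cell types, whose part in these results was not tested. Genes named below as leading a list in 1 group were picked after their values were seen. The summed TPM of 6 paraxial mesoderm genes was 3.44 to 4.20 in SOX17+, 46.7 to 52.8 in SOX17+/T+ and 153 to 209 in T+ libraries, and 9.53 to 9.81 in mESC libraries. Mesp1 and Msgn1 led it in SOX17+/T+ and T+ cells, and Dll1 in SOX17+ cells and mESC. The sum of 6 node and notochord genes was 17.7 to 23.3 TPM in SOX17+, 43.9 to 73.7 in SOX17+/T+, 55.3 to 105 in T+ and 4.93 to 5.53 in mESC libraries. Nog and Shh led it in the sorted groups. In mESC, Shh averaged 0.0315 TPM, Foxj1 led at 1.55 TPM, and Noto was listed at 0 in all 3 libraries. Both sums had the same order over the sorted groups as Nodal and Lefty2. In the other direction, 7 extraembryonic and visceral endoderm genes summed to 111 to 126 TPM in SOX17+, 12.7 to 14.5 in SOX17+/T+, 2.65 to 4.57 in T+ and 7.12 to 9.24 in mESC libraries. Ttr and Hnf4a led it in SOX17+ and SOX17+/T+ cells, Sox7 and Ttr in T+ cells, and Cubn and Amn in mESC. The sum of 5 primitive blood genes was 94.1 to 227 TPM in SOX17+, 13.3 to 20.7 in SOX17+/T+, 4.19 to 5.68 in T+ and 1.51 to 1.95 in mESC libraries. The globin genes Hbb-bh1 and Hba-x led it in SOX17+ cells, Gata1 and Tal1 in SOX17+/T+ cells and Tal1 in T+ cells and mESC, where both globin genes were listed at 0. The sum of 8 definitive endoderm genes was 1432 to 1650 TPM in SOX17+, 938 to 1173 in SOX17+/T+, 247 to 312 in T+ and 371 to 403 in mESC libraries. It includes Sox17, by which the cells were sorted, and of the other 7 genes 6 were called higher and 1 lower in SOX17+ against T+ cells, beside 25.4% and 29.0% of all genes.

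The mESC libraries differed from the sorted ones in pluripotency and fibroblast transcripts. The sum of 8 naive pluripotency genes was 67.9 to 77.2 TPM in SOX17+, 54.5 to 66.4 in SOX17+/T+, 57.6 to 61.9 in T+ and 2040 to 2055 in mESC libraries. Zfp42 and Nanog led it in mESC, whereas Tbx3 led it in the sorted groups, with 57.9 TPM in SOX17+, 36.2 in SOX17+/T+ and 32.6 in T+ cells. Zfp42 averaged 0.847 TPM in SOX17+, 1.51 in SOX17+/T+, 2.28 in T+ and 515 in mESC libraries. The sum of 10 feeder fibroblast genes was 50.7 to 57.2 TPM in SOX17+, 49.3 to 60.1 in SOX17+/T+, 72.1 to 85.3 in T+ and 2600 to 3248 in mESC libraries. Acta2 and Tagln led it in mESC, Col1a2 and Col1a1 in SOX17+ cells, and Col1a1 and Acta2 in SOX17+/T+ and T+ cells. All 10 were called lower in each sorted group than in mESC, beside 50.0%, 50.3% and 49.5% of all genes. The filter fixed this direction for the 4 that were under 1 TPM in all 9 sorted libraries (Col3a1, Dcn, Lum and S100a4). Postn also passed it only with the mESC libraries, but reached 1.39 TPM in SOX17+/T+ and 1.60 TPM in T+ libraries. Lum and S100a4 were listed at 0 in all SOX17+ libraries, S100a4 in all SOX17+/T+ libraries and Lum in all T+ libraries. The part of these transcripts in the members' mESC levels was not tested.

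A further 48 genes of the pathway were listed by role, and 46 of them passed the filter. Mstn and Acvr1c did not, and they are named here after their values were seen. Against mESC, 25 were called higher and 15 lower in SOX17+ cells, 25 higher and 17 lower in SOX17+/T+ cells, and 25 higher and 17 lower in T+ cells. Called in either direction were 87.0%, 91.3% and 91.3% of the list, beside 85.4%, 85.2% and 84.0% of all genes, so these totals are near the background. On the deposited scale the split by direction was not. In each comparison 54.3% of the list was higher, beside 35.4%, 34.9% and 34.5% of all genes. Lower were 32.6%, 37.0% and 37.0%, beside 50.0%, 50.3% and 49.5%. The list was chosen with earlier results known, so the split is a description. The split of all genes depends on the scale. Under quantile normalization, 7189 of 16097 genes were called higher and 6519 lower in SOX17+ cells against mESC. The list was not counted on that scale. In SOX17+ against T+ cells, 14 were called higher and 19 lower, 71.7% of the list beside 54.5% of all genes. In SOX17+/T+ against T+ cells 6 were higher and 11 lower (37.0% beside 28.4%), and in SOX17+ against SOX17+/T+ cells 9 higher and 15 lower (52.2% beside 36.6%). Genes of the list were called in both directions in each of these comparisons. Their median differences between sorted groups were -0.09 in SOX17+ against T+, -0.00 in SOX17+/T+ against T+ and -0.10 in SOX17+ against SOX17+/T+ cells.

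**Figure D4:**
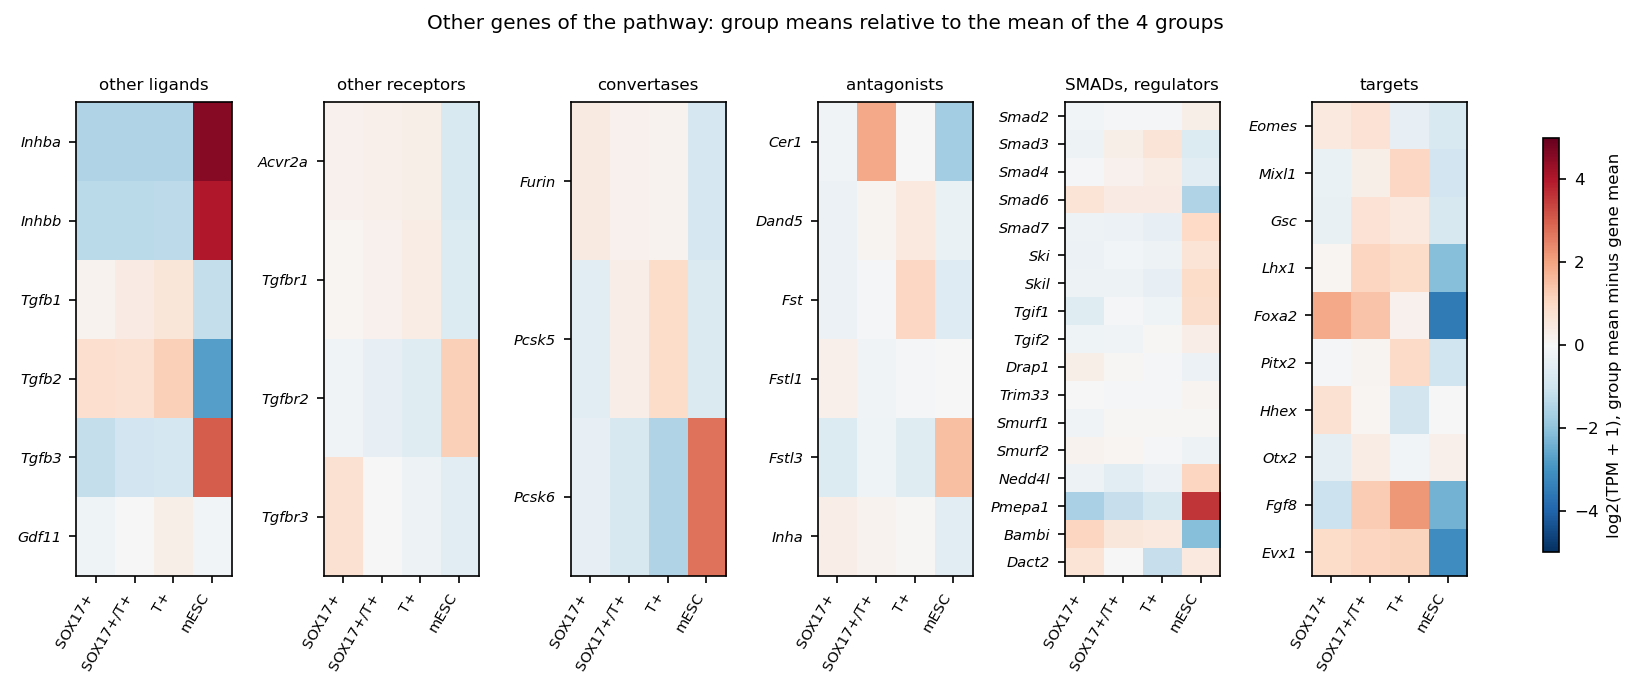
Group means of log2(TPM + 1) of 46 other pathway genes in SOX17+, SOX17+/T+, T+ and mESC cells, each relative to the mean of its 4 group means, grouped by role. Red is above and blue below the mean of the gene. Inhba, Inhbb, Tgfb3, Pcsk6 and Pmepa1 stand out in mESC, and Fgf8 is at 12.4 TPM in SOX17+ cells, against 120 TPM in T+ cells.

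The other ligands moved in both directions against mESC. Of 6 tested, 2 were called higher and 3 lower in SOX17+ cells against mESC, beside 35.4% and 50.0% of all genes. Between sorted groups none was called higher, beside 25.4% of all genes in SOX17+ against T+, 12.6% in SOX17+/T+ against T+ and 19.8% in SOX17+ against SOX17+/T+ cells. Called lower were 4, 2 and 1, beside 29.0%, 15.8% and 16.8% of all genes. With 6 genes, of which 3 were under 1 TPM in all sorted libraries, these counts are no result about the list. Tgfb2, which encodes a TGF-beta ligand, was at 65.4, 62.8 and 69.5 TPM in SOX17+ libraries and 3.67, 5.20 and 5.24 TPM in mESC libraries, a difference of 3.56 ± 0.11 (adjusted p = 8.0e-12). It averaged 62.6 TPM in SOX17+/T+ and 84.8 TPM in T+ libraries. The 3 called lower against mESC were the activin subunit genes Inhba and Inhbb and Tgfb3. They were under 1 TPM in all 9 sorted libraries, so they passed the filter through mESC alone. Their lower level was a condition of being tested. Inhba and Inhbb encode the activin beta subunits, which use the same receptors without a co-receptor. Inhba was at 0.0191, 0.0235 and 0.0788 TPM in SOX17+ libraries and 60.9, 72.5 and 69.7 TPM in mESC libraries, a difference of -6.04 ± 0.08, and its mean was 0.0406 TPM in SOX17+/T+ and 0.0343 TPM in T+ libraries. Inhbb was listed at 0 in all 3 SOX17+ libraries, at up to 0.0114 TPM in SOX17+/T+ and 0.0310 TPM in T+ libraries, and at 40.0, 42.2 and 38.0 TPM in mESC libraries. The differences of Tgfb3 from mESC were -4.23 ± 0.11 in SOX17+, -3.99 ± 0.11 in SOX17+/T+ and -3.92 ± 0.11 in T+ cells. The fibroblast markers were high in these same mESC libraries, at the sums given above, and their part in these differences was not tested. Tgfb1, which was lower in SOX17+ than in T+ cells (-0.41 ± 0.08, adjusted p = 7.9e-04), averaged 91.7 ± 4.02 TPM in SOX17+, 122 ± 13.0 TPM in T+ and 34.8 ± 3.10 TPM in mESC libraries (SD, n = 3 each), and was higher in SOX17+ cells than in mESC (1.38 ± 0.08, adjusted p = 2.2e-09). In SOX17+/T+ against T+ cells Tgfb1 differed by -0.21 ± 0.08 (adjusted p = 0.072). It was called lower with the replicate number as a block over all 12 libraries (adjusted p = 0.0038).

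Among the other receptors, Acvr2a, another type II receptor of NODAL, was higher than in mESC by 0.99 ± 0.06 in SOX17+, 1.02 ± 0.06 in SOX17+/T+ and 1.07 ± 0.06 in T+ cells, alongside Acvr1b and Acvr2b. Tgfbr2, the TGF-beta type II receptor, was lower than in mESC (-1.33 ± 0.10, -1.59 ± 0.10 and -1.77 ± 0.10 in the same groups). The accessory receptor gene Tgfbr3 was higher in SOX17+ than in T+ cells (1.00 ± 0.08, adjusted p = 2.7e-07) and than in SOX17+/T+ cells (0.72 ± 0.08, adjusted p = 1.7e-05). Of the 4 tested, 3 were called higher and 1 lower in each sorted group against mESC. Of all genes, 35.4%, 34.9% and 34.5% were called higher there and 50.0%, 50.3% and 49.5% lower. In SOX17+ against T+ cells, 2 of the 4 were called higher and 1 lower, beside 25.4% and 29.0% of all genes. With 4 genes, these counts are no result about the list.

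The proprotein convertases, which cleave the NODAL precursor, were not uniform. Furin averaged 60.4 TPM in SOX17+, 50.4 in SOX17+/T+, 49.7 in T+ and 24.1 in mESC libraries, and was higher than in mESC by 1.29 ± 0.06, 1.04 ± 0.06 and 1.01 ± 0.06 in the sorted groups. Pcsk6, which encodes PACE4, was at 2.84, 2.73 and 2.60 TPM in SOX17+, 2.20, 1.60 and 1.75 in SOX17+/T+, 0.631, 0.836 and 0.857 in T+ and 31.9, 31.4 and 31.1 in mESC libraries. Pcsk5 was at 1.56, 1.60 and 1.31 TPM in SOX17+, 3.26, 3.41 and 3.92 in SOX17+/T+, 5.16, 5.39 and 6.68 in T+ and 1.05, 1.18 and 1.28 in mESC libraries. The sorted groups did not overlap for either gene, and the orders were opposite. In SOX17+ against T+ cells Pcsk6 was higher (1.07 ± 0.08, adjusted p = 2.0e-07) and Pcsk5 lower (-1.43 ± 0.10, adjusted p = 4.9e-08).

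Of the 6 other extracellular antagonists, 2 were called higher and 2 lower in SOX17+ against T+ cells, beside 25.4% and 29.0% of all genes. None was called higher and 1 lower in SOX17+/T+ against T+ cells, beside 12.6% and 15.8% of all genes. With the replicate number as a block over all 12 libraries, 2 were called higher in this last comparison (Cer1 and Fstl3) and 2 lower (Fst and Dand5). The block was shared with the SOX17+ and mESC libraries, whose same-numbered libraries did not all deviate together with those of the other groups. It is thus not a fit of the SOX17+/T+ and T+ pairs alone. Fst, which encodes the activin-binding protein follistatin, was at 18.9, 17.8 and 19.9 TPM in SOX17+, 22.1, 20.6 and 23.2 in SOX17+/T+, 51.0, 42.8 and 55.8 in T+ and 14.7, 15.9 and 14.4 in mESC libraries. It was lower in SOX17+ (-1.35 ± 0.08, adjusted p = 2.2e-08) and in SOX17+/T+ cells (-1.14 ± 0.08, adjusted p = 5.5e-07) than in T+ cells. Cer1, which encodes the NODAL and BMP antagonist CERBERUS, was at 1.84, 0.787 and 4.89 TPM in SOX17+, 8.69, 6.72 and 27.3 in SOX17+/T+, 1.42, 1.17 and 7.24 in T+ and 0.0314, 0 and 0.0672 in mESC libraries. Replicate 3 was the highest library in each sorted group. In SOX17+/T+ cells it was higher than in T+ cells within each same-numbered pair, although the libraries of the groups overlapped. This difference was 1.87 ± 0.67 (adjusted p = 0.068) without the block and 1.87 ± 0.35 (adjusted p = 0.0047) with it. Cer1 was lower in SOX17+ than in SOX17+/T+ cells (-2.05 ± 0.67, adjusted p = 0.040), with no overlap between their libraries.

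Among 17 SMADs and intracellular regulators, 5 were called higher and 6 lower in SOX17+ against T+ cells, with a median difference of 0.03. These were 29.4% and 35.3% of the list, beside 25.4% and 29.0% of all genes, so the counts are near the background. Smad3, a signal transducer of the pathway, was at 20.3, 18.4 and 19.6 TPM in SOX17+, 27.3, 28.8 and 31.4 in SOX17+/T+, 36.1, 37.6 and 38.8 in T+ and 14.2, 14.8 and 13.7 in mESC libraries. It was lower in SOX17+ than in T+ cells (-0.91 ± 0.06, adjusted p = 3.1e-08). Pmepa1, a TGF-beta-induced inhibitor of SMAD signalling, was lower than in mESC by wide margins (-5.19 ± 0.09 in SOX17+, -4.72 ± 0.09 in SOX17+/T+ and -4.39 ± 0.09 in T+ cells). Bambi, a pseudoreceptor, and Smad6, an inhibitory SMAD, were higher than in mESC, by 3.19 ± 0.05 and 2.19 ± 0.07 in SOX17+ cells. Dact2, which is known from zebrafish to promote the breakdown of NODAL receptors, was at 12.8, 13.6 and 13.9 TPM in SOX17+, 7.48, 7.96 and 8.01 in SOX17+/T+, 2.78, 3.44 and 2.98 in T+ and 10.8, 11.6 and 12.6 in mESC libraries. It was higher in SOX17+ (1.83 ± 0.07, adjusted p = 3.8e-10) and in SOX17+/T+ cells (1.12 ± 0.07, adjusted p = 2.2e-07) than in T+ cells.

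Of 10 known transcriptional targets of the pathway, 8 were called higher and none lower in SOX17+ cells against mESC, 8 and none in SOX17+/T+ cells, and 7 higher and 1 lower in T+ cells. Called in either direction were 80.0% of the list in each of the 3 comparisons, beside 85.4%, 85.2% and 84.0% of all genes. Of all tested genes, 35.4%, 34.9% and 34.5% were called higher and 50.0%, 50.3% and 49.5% lower. Foxa2, a pioneer factor of endoderm, was higher than in mESC by 5.44 ± 0.22 in SOX17+, 4.95 ± 0.22 in SOX17+/T+ and 3.76 ± 0.22 in T+ cells, and Evx1, a homeobox gene of the primitive streak, by 4.03 ± 0.12, 4.18 ± 0.12 and 4.21 ± 0.12. In SOX17+ against T+ cells, 3 were called higher and 5 lower, beside 25.4% and 29.0% of all genes. Hhex, an anterior endoderm homeobox gene, was higher (1.68 ± 0.13, adjusted p = 2.5e-07), as was Foxa2 (1.68 ± 0.22, adjusted p = 8.6e-05), and Fgf8, a streak-expressed FGF ligand, was lower (-3.22 ± 0.22, adjusted p = 4.8e-07). In SOX17+/T+ against T+ cells 3 were called higher and 3 lower, beside 12.6% and 15.8% of all genes. Eomes, a T-box factor needed for endoderm, was higher there (1.12 ± 0.21, adjusted p = 0.0021).

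The tested genes with the most similar profiles were found by the root-mean-square difference (in log2 units) of the 4 group means of log2(TPM + 1), each centred on its own mean, among genes with a mean of at least 5 TPM in at least 1 group. They are descriptions over 4 groups. For Tdgf1, the nearest was Pou5f1, which encodes OCT4 (difference 0.35), and then its own copy Tdgf1-ps1 (0.42), and Pou5f1 was also nearest to Lefty1 (0.47), before Thy1 (0.56). Pou5f1 averaged 5.69 TPM in SOX17+, 25.1 in SOX17+/T+, 92.0 in T+ and 1367 in mESC libraries. For Cfc1 the nearest were the bHLH gene Hand1 (0.27) and the homeobox gene Msx1 (0.63), and Hand1 averaged 265 TPM in SOX17+, 431 in SOX17+/T+, 683 in T+ and 0.520 in mESC libraries. Nodal was nearest to Irf2bpl (0.15) and Synpo (0.16), Lefty2 to Htra1 (0.59), and Gdf3 to Actg2 (0.05) and Rpl39l (0.08). For the other members the nearest were Kdm7a (0.04) and Plekho1 (0.05) for Foxh1, and Ppm1l (0.01) and Hnrnpa1l2-ps2 (0.01) for Acvr1b. They were Kdm6b (0.02) and Ciz1 (0.02) for Acvr2b, and Usp28 (0.03) and Gpt2 (0.04) for Gdf1. The Gdf1 match rests on values under 1 TPM in all sorted libraries, where the added 1 TPM flattens differences. Usp28 averaged 17.8 TPM in SOX17+ and 48.7 in mESC libraries, against 0.0556 and 1.80 for Gdf1.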

How the data were processed

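Poly(A) RNA sequencing of 12 libraries, 3 each of SOX17+, SOX17+/T+, T+ and mESC, was used as 1 table of TPM values deposited by the authors. Per the submitters' processing notes, cutadapt, STAR and StringTie were used with the builds mm10 and GRCm38. The sources used here do not give versions, the annotation release, filters or the use of strand. Of 54480 rows, those of 11 split genes were summed per identifier, giving 54446 genes, after 282 empty cells were read as 0. TPM gives no count depth, so no count test was run. Of the versioned row identifiers, 53263 of 54480 matched GENCODE vM21, which was used for exons and shared sequence.

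Genes at 1 TPM or more in at least 3 of 12 libraries were kept (16097). With limma 3.58.1 under R 4.3.3, a linear model with a mean for each group was fitted to log2(TPM + 1) over all 12 libraries (eBayes with trend and robust, 8 residual degrees of freedom). The 2-sided p-values were adjusted by Benjamini-Hochberg over all tested genes, separately in each of the 6 comparisons, which share libraries. The fit was checked on simulated data. The 10 genes, the pathway and marker lists and the alternatives were chosen with earlier results of these data known.

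Named genes follow a rule. Each member was named, T and Sox17 served as the check of the sort, and up to 3 called genes with the largest difference were named per pathway list and comparison. The 2 nearest profiles per member, the 2 most abundant genes of each marker list and genes that share sequence or exons with a member were also named, except 1 gene that is not reported here. Same-numbered SOX17+/T+ and T+ libraries deviated together from their group means (r = 0.204, 0.149 and 0.242 across genes), so the numbers were taken to pair these groups. In the other 5 comparisons not every same-numbered pair passed 0.1. The block for the replicate number was nevertheless fitted over all 12 libraries, not to the pairs of these 2 groups alone.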

Additional observations from a re-analysis of the deposited data

How the results depend on the processing

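The numbers of called members stayed within 1.5 times the main count under every alternative fitted to all members. Leaving out 1 library at a time gave 7 to 9 called members in SOX17+ against T+ cells, 5 to 6 in SOX17+/T+ against T+ cells, 6 to 7 in SOX17+ against SOX17+/T+ cells and 10 in each comparison with mESC. With the replicate number as a block over all 12 libraries (replicate block), the fit called 8, 6 and 7 members between sorted groups and 10 against mESC. These counts were the same without the block, and no member's call changed. For the 46 other pathway genes, the block was added after seeing the data and called 22 in SOX17+/T+ against T+ cells (17 without it), 31 in SOX17+ against SOX17+/T+ cells (24 without it) and 43 in SOX17+ cells against mESC (40 without it), with no call lost and equal counts in the other 3 comparisons. Of 1218 single-gene values under alternatives, 1191 kept direction and call, 14 lost the call, 3 gained it and 10 turned direction, and 48 of 60 results kept both throughout.

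The turned values belong to Gdf3 and Gdf1. Gdf3, near 0 TPM in all sorted libraries, gave in SOX17+ against T+ cells 0.0037 with a pseudocount of 0.1 and 0.026 under quantile normalization. Leaving out 1 library at a time gave -0.052 to 0.053 there, -0.032 to 0.12 in SOX17+/T+ against T+ cells and -0.12 to 0.029 in SOX17+ against SOX17+/T+ cells. Gdf1 summed with the overlapping Cers1 gave 0.39 in SOX17+, 0.88 in SOX17+/T+ and 0.96 in T+ cells against mESC, and -0.50 in SOX17+ against SOX17+/T+ cells (adjusted p = 4.4e-04), which was not called for Gdf1 alone. Cers1 had the higher mean TPM of the pair in each group, and its mean was higher in each sorted group than in mESC. How reads were divided between the overlapping genes was not tested. Without a filter on low values, Gdf1 in SOX17+ against T+ cells was no longer called (adjusted p = 0.056); the cause was not tested. With a minimum of 5 TPM, Gdf1 was not tested. Median-of-ratios scaling moved 9 of 40 levels by more than 1 SD and no call.

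Depth is unknown, so the precision of values under 1 TPM, which include both Lefty genes in SOX17+ cells, cannot be given. The alternative that sums Tdgf1 with Tdgf1-ps1 was chosen after seeing the data.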

Other observations

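Replicate 2 was the lowest of the 3 libraries in each of the SOX17+, SOX17+/T+ and T+ groups for 4 of the 10 members, Nodal, Lefty1, Lefty2 and Tdgf1. The same held for 11.7% of all tested genes (1884 of 16097). These 4 genes are the members called lower in each sorted group than in mESC, apart from Gdf1 and Gdf3. The share was not tested.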
